A study of Mus musculus with 12 samples.

Results

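Skin RNA of mice that lack Thy-1 was compared with that of wild-type (WT) mice after both had been given bleomycin. The comparison takes in 6 of the 12 mice of the study, chosen by their labels: 3 Thy-1 knockout mice given bleomycin (KO BLM, mice 141, 143 and 144) and 3 WT mice given bleomycin (WT BLM, mice 145, 146 and 147). All 55453 genes of the count table were considered, and 18311 had enough counts to be tested. The other 6 mice were given phosphate-buffered saline (PBS), 3 of each genotype (KO PBS, mice 136, 137 and 139, and WT PBS, mice 159, 160 and 161). No mouse is shared between the bleomycin and the PBS comparison of the genotypes, so the PBS mice are used below as a second reading of the genotype difference. Both comparisons come from the same model fit and share its estimate of spread, so their calls are not independent.

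The methods describe the knockout mice as females of 8 to 12 weeks on a C57BL/6 background. They do not state the sex of the WT mice, for which the same age range was taken here. The knockout mice lack Thy1 in every cell, so the data cannot show in which cell type its loss acts. The methods name C57BL/6J mice from a supplier as WT and also describe all controls as littermates. Bleomycin was injected under the skin at 10 mg/kg per day, for up to 14 days by the methods, whereas the labels describe a longer course, and the skin was taken on day 21. The labels give 1 library for each mouse and name the tissue only as skin. In such whole tissue, fewer cells of a type and less RNA per cell cannot be told apart.

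Thy-1 (CD90) is a glycoprotein anchored in the outer membrane of dermal fibroblasts and, in the mouse, of T cells and neurons. It binds integrins on neighbouring cells and takes part in adhesion and in the activation of latent TGF-beta. Bleomycin breaks DNA and, when injected repeatedly, leads to inflammation, myofibroblasts that express smooth muscle actin, and scar collagen in the dermis. Hair follicles and the sebaceous glands attached to them, which make and secrete lipids, fill much of mouse skin, and their RNA changes as follicles pass from growth to rest.

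Library totals ran from 30337913 to 32218073 counts in the KO BLM mice and from 26473700 to 31550305 in the WT BLM mice. Expression is given in CPM, the counts of a gene scaled by the library total after TMM normalization. A gene was called when edgeR's quasi-likelihood test, fitted to all 12 mice with 1 mean per group, gave it a p under 0.05 after Benjamini-Hochberg adjustment. Fold changes are log2 of KO BLM over WT BLM. The standard error (SE) beside them was derived from that test, as the absolute fold change divided by the square root of its F statistic. Over all tested genes, each of the 6 bleomycin mice lay nearest to a mouse of its own group. Over the 500 most variable genes, WT BLM mouse 146 lay nearest to KO BLM mouse 143. The mice differed in the state of their hair follicles. The mean log2 CPM of a list of 40 growing hair genes was 8.26, 4.41 and 5.50 in KO BLM mice 141, 143 and 144, and -0.123, 2.98 and -0.118 in WT BLM mice 145, 146 and 147. It was 8.71 to 9.32 in the WT PBS mice, and 9.14, -0.29 and 2.32 in KO PBS mice 136, 137 and 139.

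The targeted gene was lower in the knockout mice without being absent. Thy1 (chr9:44043384-44048579, GRCm38) was measured at 84.7, 128 and 96.4 CPM in KO BLM mice 141, 143 and 144, against 231, 349 and 416 CPM in WT BLM mice 145, 146 and 147. The groups did not overlap, and the log2 fold change was -1.69 ± 0.31 (SE). The adjusted p from edgeR was 0.112, so Thy1 did not pass the threshold, whereas DESeq2 gave an adjusted p of 8.71e-05. In PBS-treated skin it was 45.6, 96.9 and 77.4 CPM in the knockout and 104, 115 and 150 CPM in WT mice, again without overlap. The table counts reads per gene and not per exon, so it does not show whether the remaining reads come from an intact transcript.

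Only 17 genes passed the threshold between KO BLM and WT BLM skin, which is 0.0928% of the genes tested. In the knockout 10 were higher (0.0546%) and 7 lower (0.0382%). At an unadjusted p under 0.05, 1465 genes (8%) were higher and 1578 (8.62%) lower. In 14.7% of genes all 3 KO BLM mice lay above all 3 WT BLM mice, and in 12.9% all lay below. DESeq2 on the same mice called 614 genes (3.34%), 313 higher (1.7%) and 301 lower (1.64%), and all 17 were among them. The count turned on single mice: edgeR called 5 to 11 genes when 1 of the 6 bleomycin mice was left out and 1292 when KO PBS mouse 136, whose spread enters the shared fit, was left out. Tnfrsf23, Acot1 and the pseudogenes Gm9855, Gm29787 and Gm14719 kept their call whichever of the 12 mice was left out. Tnfrsf26, 1190007I07Rik, AA465934, Gm21451 and Gm4013 lost it whichever of the 6 bleomycin mice was left out. In PBS-treated skin, 15 of the 17 differed in the same direction, 14 of them without overlap between genotypes (18.9% of all genes did not overlap there in either direction). There 7 of the 17 were called, among 12 genes called in all (0.0655%). With only the PBS groups in the model, 2 genes were called there.

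**Figure D1:**
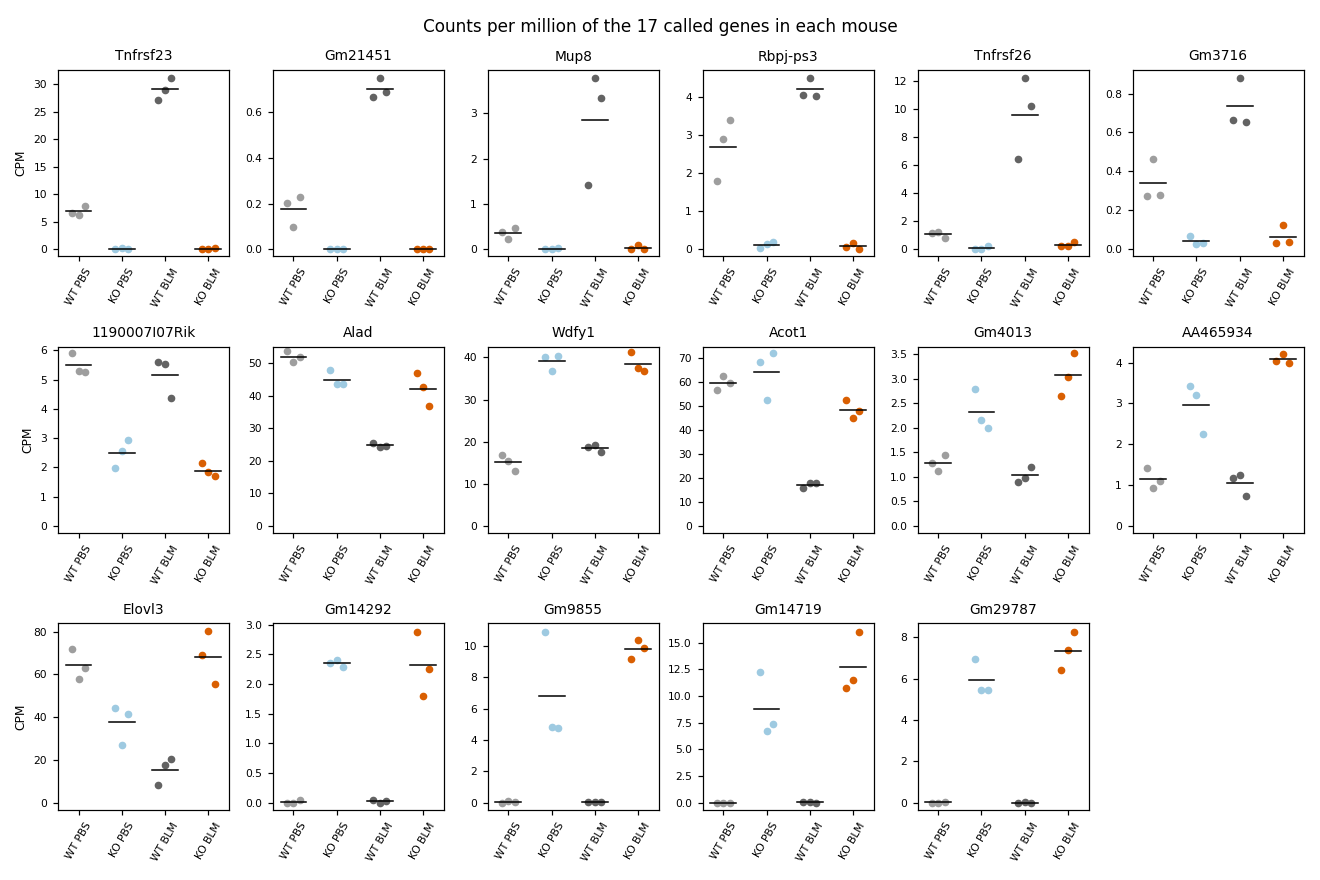
CPM (vertical axis, linear, from 0) of each of the 17 called genes, 1 dot per mouse and a line at the mean of each group of 3. Tnfrsf23 is near 0 in all 6 knockout mice, the pseudogenes Gm9855, Gm14292, Gm14719 and Gm29787 are near 0 in all 6 WT mice, and Acot1, Elovl3 and Alad are lowest in the WT BLM mice.

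The largest fall among the called genes was in a receptor gene of the TNF family. Tnfrsf23 (chr7:143665809-143685872) encodes a decoy receptor that binds the death ligand TRAIL without signalling. Each of KO BLM mice 141, 143 and 144 had 3 counts, whereas WT BLM mice 145, 146 and 147 had 695, 890 and 949 counts, or 27.2, 29.0 and 31.1 CPM. The ratio was 303-fold (95% counting interval 159 to 663), with an adjusted p of 0.000118 in edgeR. KO PBS mice had 0 to 5 counts and WT PBS mice 6.22 to 7.90 CPM. WT mice thus carried more of it after bleomycin than after PBS, while the knockout mice were near 0 under both.

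Its neighbour Tnfrsf26 (chr7:143607659-143628722), a further TNF receptor relative, fell as well. It was measured at 0.214, 0.186 and 0.530 CPM in KO BLM mice 141, 143 and 144 and at 6.42, 12.2 and 10.2 CPM in WT BLM mice 145, 146 and 147 (log2 fold change -4.96 ± 0.69, adjusted p 0.0400, edgeR). The third gene of the cluster, Tnfrsf22, which encodes the other TRAIL decoy, was at 3.43, 5.02 and 4.45 against 9.63, 9 and 7.19 CPM. Its log2 fold change was -1.0 ± 0.26, with an adjusted p of 0.212. Over 63.3% of its length, the Tnfrsf23 transcript matches that of Tnfrsf22 at 91.2% of positions, so some reads could be given to either gene. The 40 tested genes of the death receptor and apoptosis list, which holds all 3, had a median log2 fold change of -0.15, beside -0.027 for all genes. Apart from the 2 called, 0 members passed in edgeR. At an unadjusted p under 0.05, 2 members were higher and 4 lower (8% and 8.62% of all genes).

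Processed pseudogenes, copies of a spliced transcript set back into the genome, made up much of the rest. Reads of such copies can be exchanged with those of the parent, so the sequences are shown for 4 of them. Each pair below is a stretch of 60 bases from GENCODE M21 that lies in the parent's coding sequence, and capitals mark the bases at which the copy and its parent differ. Gm9855 is a copy of Tdg, Gm14292 of Wtap, Gm29787 of Cttn and Rbpj-ps3 of Rbpj. The copies' stretches lie at chr10:42054206-42054265, chr2:179177638-179177697, chr13:51205721-51205780 and chr6:46529843-46529902 of GRCm38, on the strands -, +, - and - in that order.
Gm9855: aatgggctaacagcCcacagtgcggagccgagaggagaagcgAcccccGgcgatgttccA
Tdg: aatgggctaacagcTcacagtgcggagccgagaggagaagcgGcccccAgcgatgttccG
Gm14292: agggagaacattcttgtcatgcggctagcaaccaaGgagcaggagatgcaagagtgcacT
Wtap: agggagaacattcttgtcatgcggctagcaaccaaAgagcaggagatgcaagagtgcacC
Gm29787: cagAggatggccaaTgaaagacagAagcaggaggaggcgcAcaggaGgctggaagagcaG
Cttn: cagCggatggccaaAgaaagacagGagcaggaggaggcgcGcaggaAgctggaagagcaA
Rbpj-ps3: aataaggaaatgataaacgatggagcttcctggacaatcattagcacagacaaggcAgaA
Rbpj: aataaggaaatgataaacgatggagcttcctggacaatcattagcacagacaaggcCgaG
Between 2 and 6 bases differ in each stretch, which was chosen as the window with the most differences. Over the whole aligned length, identity was 99.2% for Gm9855 and Tdg, 99.3% for Gm14292 and Wtap, 96.2% for Gm29787 and Cttn, and 99.7% for Rbpj-ps3 and Rbpj.

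Among the pseudogenes that rose, Gm9855 had 300, 335 and 279 counts in KO BLM mice 141, 143 and 144 and 1 count in each WT BLM mouse. That was a 283-fold difference (95% counting interval 96.7 to 1377; adjusted p 0.000665, edgeR). Gm29787 had 210, 238 and 234 counts against 0, 1 and 0, and Gm14719, a copy of the pancreatic differentiation factor gene Ppdpf, had 348, 371 and 453 against 1, 1 and 0. Gm14292 had 94, 58 and 64 counts against 1, 0 and 1. In all 4 the WT PBS mice were also near 0, at 0 to 3 counts, and every KO PBS mouse had 71 or more. Thus reads were present in the knockout and near absent in WT mice, under either treatment.

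Rbpj-ps3 went the other way, with 2, 5 and 0 counts in the KO BLM and 104, 138 and 123 in the WT BLM mice (adjusted p 0.0103, edgeR). Gm21451 had 0 counts in all 3 KO BLM mice against 17, 23 and 21, which makes it at least 21.9-fold lower, taking 3 counts over the group as the floor. Over 84.6% of its length the Gm21451 transcript is identical to that of Loxl2, a lysyl oxidase relative, so its counts rest on the remainder and are uncertain. Mup8, a major urinary protein gene, fell 91.0-fold (95% counting interval 30.8 to 444), from 36, 116 and 102 counts in WT BLM mice to 0, 3 and 0, and matches Mup13 at 98.9% of positions. Gm3716 had 1, 4 and 1 counts in KO BLM and 17, 27 and 20 in WT BLM mice. These are low counts, and of these 4 genes only Rbpj-ps3 was also called in PBS-treated skin.

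The parents Tdg, Rbpj and Cttn differed in the direction opposite to their copies, without passing the threshold under bleomycin. Tdg, a DNA repair glycosylase, was at 10.7, 9.09 and 9.97 CPM in KO BLM and 22.8, 17.9 and 25.8 CPM in WT BLM mice, with no overlap (log2 fold change -1.16, adjusted p 0.185). In the PBS mice Tdg was called lower, at 13.9, 6.77 and 6.5 against 39.4, 38.3 and 40.4 CPM (adjusted p 0.0246, edgeR). Rbpj, the DNA-binding partner of Notch, was at 48.1, 46.1 and 39.7 CPM in KO BLM and 30.5, 33.8 and 32.5 CPM in WT BLM mice. Its log2 fold change was 0.47, with an adjusted p of 0.313. Cttn was at 154, 175 and 179.9 CPM in KO BLM and 222, 193 and 254 CPM in WT BLM mice. For Tdg, Rbpj and Cttn the copy and the parent were each without overlap between the groups, in opposite directions. Wtap, Ppdpf and Cttn had log2 fold changes of 0.07, 0.01 and -0.40, with adjusted p of 0.731, 0.992 and 0.261 (edgeR). In the PBS mice both Cttn and Ppdpf were lower in the knockout without overlap (log2 fold changes -0.40 and -0.82), and were not called. How the counting assigned reads that match both a gene and its copy is not given in the sources used here.

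Of the remaining called genes, Wdfy1 (chr1:79702262-79776143), which encodes a phosphoinositide-binding adaptor of Toll-like receptor signalling, was higher in the knockout under both treatments. It was at 41.2, 37.6 and 36.8 CPM in KO BLM mice 141, 143 and 144 and at 18.8, 19.2 and 17.6 CPM in WT BLM mice. The log2 fold change was 1.06 ± 0.12 (adjusted p 0.00697, edgeR), and it was 1.38 in the PBS mice, where it was called too. The call under bleomycin was lost without WT BLM mouse 147 (adjusted p 0.0602). AA465934 and Gm4013, both without an assigned function, rose by log2 1.96 ± 0.28 and 1.57 ± 0.24. The unnamed gene 1190007I07Rik fell by 1.45 on the log2 scale, with values of 2.14, 1.83 and 1.7 against 5.60, 5.54 and 4.36 CPM. In PBS-treated skin these 3 differed in the same direction without being called.

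Acot1, Elovl3 and Alad were the called genes with a role in lipid or haem metabolism. Acot1 (chr12:84009490-84018371) encodes a cytosolic thioesterase that splits acyl-CoA and is a known PPAR-alpha target. It was at 52.4, 45.1 and 47.8 CPM in KO BLM mice 141, 143 and 144 and at 15.7, 18 and 17.9 CPM in WT BLM mice (log2 fold change 1.49 ± 0.13, adjusted p 0.00128, edgeR). KO PBS mice were at 68.4, 52.7 and 72.1 CPM and WT PBS mice at 56.8, 62.5 and 59.8 CPM. Those overlapped, so the low values were those of the WT BLM mice. Its near copy Acot2, 95.1% identical over 56.1% of the Acot1 transcript, was at 8.40 to 10.6 CPM in KO BLM and 8.05 to 8.46 CPM in WT BLM mice (adjusted p 0.484).

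Elovl3 (chr19:46131897-46135694), a fatty acid elongase of sebaceous glands, was at 68.9, 80.3 and 55.4 CPM in KO BLM and at 8.30, 17.7 and 20.4 CPM in WT BLM mice. The log2 fold change was 2.14 ± 0.31, with an adjusted p of 0.0421 in edgeR. In the PBS mice the sign was opposite, with 44.3, 27.2 and 41.7 CPM in the knockout and 72.0, 58.0 and 63.0 CPM in WT. Alad (chr4:62509169-62519918), the second enzyme of haem synthesis, was at 46.8, 42.6 and 36.7 CPM in KO BLM and at 25.3, 24.2 and 24.6 CPM in WT BLM mice (adjusted p 0.0400). It was at 43.5 to 47.8 CPM in KO PBS and 50.2 to 53.6 CPM in WT PBS mice. Both genes were thus without overlap in the PBS mice too, with the knockout on the lower side and neither called. The test of the difference between treatments gave adjusted p of 0.0697 for Acot1 and 0.0702 for Elovl3 and Alad, so this difference did not pass the threshold. Across all genes, 0 passed in that test with edgeR, 5687 (31.1%) had an unadjusted p under 0.05, and DESeq2 called 3279. Elovl3 and Alad each kept their call without 1 of the 6 bleomycin mice (WT BLM mouse 145 and KO BLM mouse 144) and lost it without any of the other 5.

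**Figure D2:**
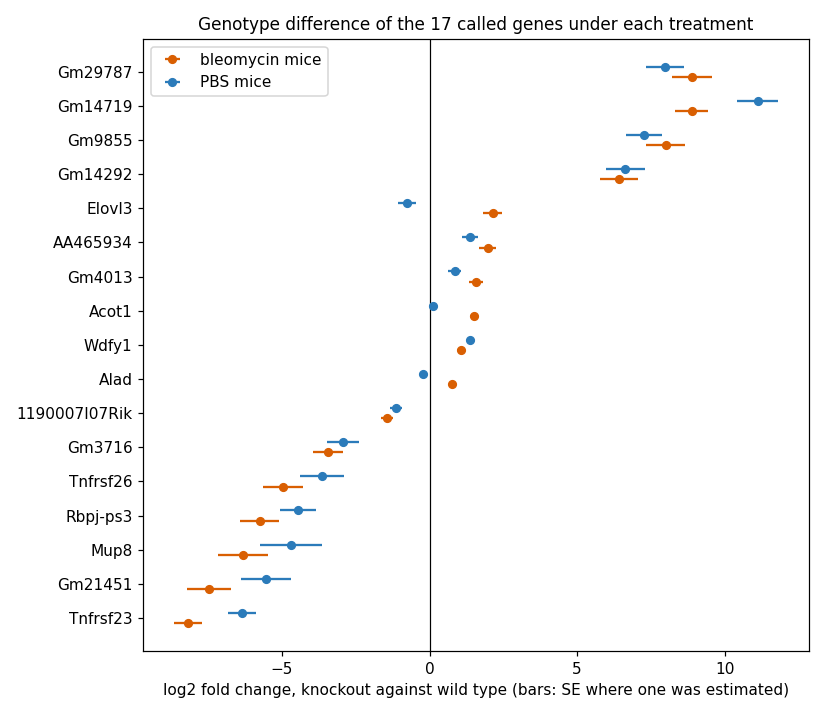
Log2 fold change of knockout against wild type (horizontal axis) for the 17 called genes in the bleomycin mice and in the PBS mice, each from 3 mice against 3, with bars of 1 SE. Elovl3 and Alad lie on opposite sides of 0 in the 2 treatments, and Acot1 is at 1.49 and 0.11; values beyond about 5 in size rest on groups with few or 0 counts and depend on the prior count.

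Elovl3 was not alone: most genes of sterol and fatty acid synthesis lay on the higher side in KO BLM skin. Of the 37 genes of the cholesterol and fatty acid synthesis list, all tested, 36 had a log2 fold change above 0 and 20 were higher at an unadjusted p under 0.05 (8% of all genes), with 0 lower. The median was 0.65, beside -0.027 for all genes. In 19 of the 37 all KO BLM mice lay above all WT BLM mice (14.7% of all genes), and in 0 below (12.9% of all genes). Elovl3 was the 1 member called by edgeR, and DESeq2 called 10, all higher (1.7% of all genes). The mean log2 CPM of the list was 6.67, 6.79 and 6.67 in KO BLM mice 141, 143 and 144 and 5.84, 6.03 and 6.25 in WT BLM mice 145, 146 and 147. In the KO PBS mice it was 6.44 to 6.80 and in the WT PBS mice 6.78 to 6.85. The KO BLM mice thus lay in the range of the PBS mice, and the 3 WT BLM mice below it.

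By step of the pathway, the first committed enzyme, Hmgcs1, was at 239, 231 and 208 CPM in KO BLM and at 145, 117 and 155 CPM in WT BLM mice (log2 fold change 0.70 ± 0.16, adjusted p 0.17, edgeR). Msmo1, which removes the methyl groups of lanosterol, was at 127, 190.5 and 161 CPM against 65.0, 78.1 and 102 CPM. Neither gene overlapped between the groups. Among the elongases, Elovl6 was at 317, 468 and 315 CPM against 87.7, 161 and 110.1 CPM (log2 fold change 1.61 ± 0.36, adjusted p 0.166). The transcription factors of the pathway differed less, with log2 fold changes of 0.08 ± 0.10 for Srebf1 and 0.28 ± 0.18 for Srebf2. The groups of Srebf1 overlapped.

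**Figure D3:**
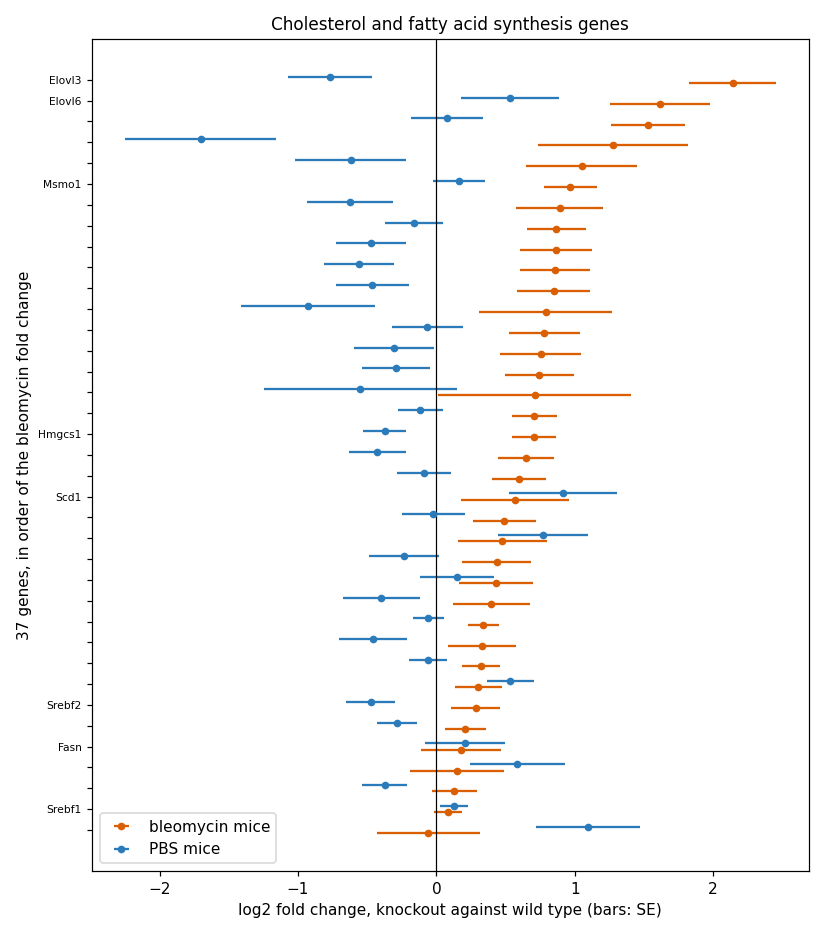
Log2 fold change of knockout against wild type with 1 SE for the 37 genes of cholesterol and fatty acid synthesis, in the bleomycin mice and in the PBS mice. Under bleomycin 36 of 37 lie above 0 with a median of 0.65, and under PBS the median is -0.23; only genes named in the text are labelled.

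The promoter of Hmgcs1 is shown because it holds the letters of the sterol regulatory element, the sequence that SREBP factors are known to bind. The RefSeq promoter table (GRCm38.p6, 250 bases before to 50 after a start) held 27 of the 37 genes. The letters TCACNCCAC, searched on both strands, were found in 1 of the 27 (3.7%) and in 1.44% of all 27025 genes with a promoter there. The window lies at chr13:119690101-119690400, + strand, and capitals mark the match.
Hmgcs1: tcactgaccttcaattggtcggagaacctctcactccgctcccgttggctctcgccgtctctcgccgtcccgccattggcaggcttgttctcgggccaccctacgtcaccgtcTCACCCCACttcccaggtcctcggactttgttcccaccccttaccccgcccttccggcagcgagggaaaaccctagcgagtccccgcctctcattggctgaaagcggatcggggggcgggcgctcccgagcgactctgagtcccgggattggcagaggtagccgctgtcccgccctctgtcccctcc

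Sebaceous gland genes lay on the same side. Of 23 tested members, 14 were higher and 1 lower at an unadjusted p under 0.05 (8% and 8.62% of all genes). The median was 0.62, and 12 were higher without overlap (14.7% of all genes). The list also lay on the higher side in the PBS mice (median 0.77, 8 higher and 1 lower, beside 12.6% and 7.75% of all genes there). Its mean log2 CPM was 5.80, 6.74 and 6.92 in KO PBS mice 136, 137 and 139 and 5.88 to 6.11 in WT PBS mice. The list shares Elovl3, Elovl6, Scd1 and Fasn with the synthesis list. Fa2h, which hydroxylates fatty acids, was at 167, 274 and 207 CPM in KO BLM and 39.7, 99.2 and 80.9 CPM in WT BLM mice (log2 fold change 1.56 ± 0.39). The wax synthases Awat1 and Awat2 were at 28.8 to 61.8 and 15.3 to 23.9 CPM against 12.6 to 16.8 and 3.95 to 9.88 CPM. Mc5r, the melanocortin receptor of sebocytes, was at 25.5, 8.28 and 8.06 CPM against 3.17, 6.52 and 2.46 CPM. For all 4 the groups did not overlap, and 0 of them passed the adjusted threshold in edgeR. Pparg, the regulator of lipid-storing cells, overlapped at 11.1 to 23.1 against 7.44 to 36.4 CPM. Within the fatty acid oxidation and PPAR-alpha target list, the median over 34 tested members was 0.05, with Acot1 called, 3 higher and 2 lower at an unadjusted p under 0.05.

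The growing hair genes differed between the same groups, so the lipid lists were counted again without the highest hair value and with hair in the model. Without KO BLM mouse 141, the mouse with the highest hair values, 22 synthesis genes were higher and 0 lower at an unadjusted p under 0.05 (median 0.66), and for the sebaceous list 14 were higher (median 0.81). KO BLM mice 143 and 144 still lay above every WT BLM mouse in hair values (4.41 and 5.50 against -0.123 to 2.98). That count therefore does not remove the hair difference between the groups. With the mean of the growing hair list as a covariate, the synthesis list had 15 higher and 1 lower (median 0.43), and the sebaceous list had 16 higher (median 1.33) with 3 called. In the covariate fit Elovl3 itself was no longer called (log2 fold change 1.89, adjusted p 0.0879), whereas Acot1 was (1.32, adjusted p 0.00913).

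Genes of growing hair follicles, hair pigment and cell division were all on the higher side. Of the 40 tested growing hair genes, 29 were higher at an unadjusted p under 0.05, 36 were higher without overlap, and the median log2 fold change was 5.64. Over all genes those shares were 8% and 14.7%, to be read also beside the pigment and proliferation counts. Msx2, a hair matrix transcription factor, was at 122, 28.9 and 34.5 CPM in KO BLM and 4.66, 6.78 and 4.59 CPM in WT BLM mice. Without KO BLM mouse 141 the median was 3.52 and 7 were higher at that p. For the 15 pigment genes the counts were 12 higher, 12 without overlap, and a median of 2.71. Dct, a melanin synthesis enzyme, was at 266, 180 and 152 against 21.7, 39.6 and 56.3 CPM. Of 24 proliferation genes, 9 were higher at that p and 23 did not overlap, with a median of 0.81. The replication clamp gene Pcna was at 74.6, 80.7 and 77.9 against 53.9, 51.9 and 59 CPM. In edgeR 0 genes of these 3 lists were called, and DESeq2 called 8, 8 and 3, all higher (1.7% of all genes). In the PBS mice all 3 lists had a median below 0 (-1.38, -2.49 and -1.18). With hair as a covariate, the medians of the pigment and proliferation lists under bleomycin were 0.54 and 0.13.

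**Figure D4:**
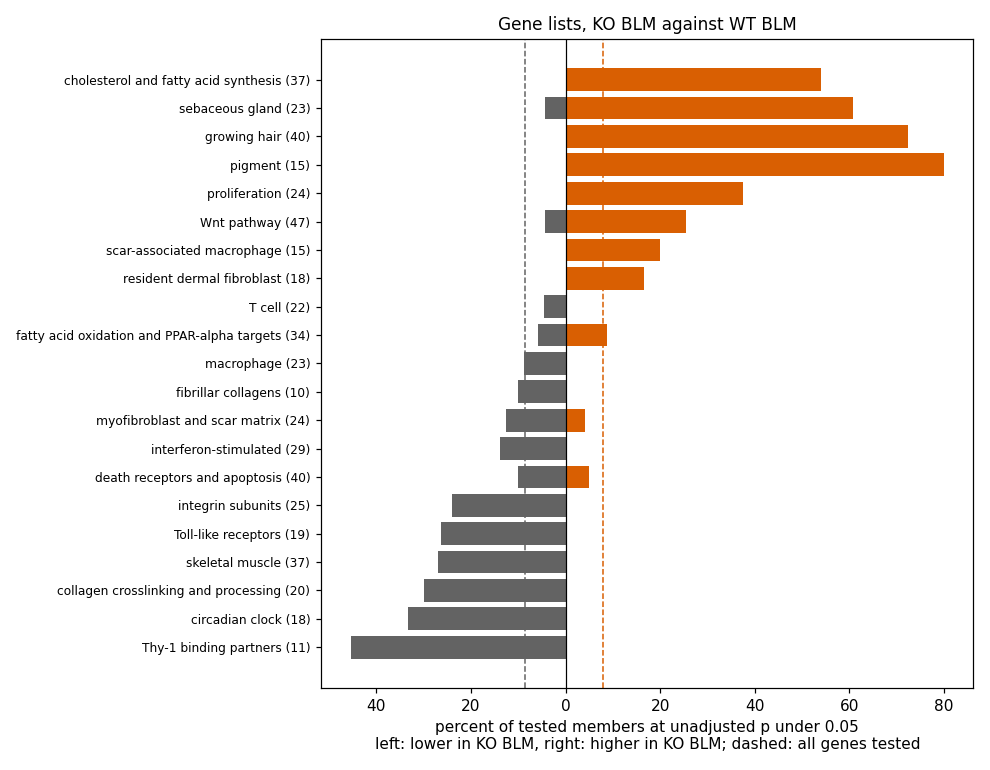
For 21 gene lists, the percent of tested members (their number in brackets) with an unadjusted p under 0.05 between the genotypes under bleomycin, with those lower in the knockout to the left and those higher to the right. The dashed lines give the same share over all tested genes, 8.62% lower and 8% higher, and the lipid, hair, pigment and proliferation lists lie to the right while the matrix, integrin, Toll-like receptor and muscle lists lie to the left.

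Wnt ligands and modulators, which take part in both hair growth and fibrosis, lay mostly on the higher side. Of 47 tested members, 12 were higher and 2 lower at an unadjusted p under 0.05 (8% and 8.62% of all genes). The median was 0.45 (0.12 with hair as a covariate and -0.19 in the PBS mice). EdgeR called 0 and DESeq2 4, all higher (1.7% of all genes). Rspo3, which sustains Wnt receptors, was at 4.10, 5.43 and 4.21 CPM in KO BLM and 1.21, 2.18 and 1.54 CPM in WT BLM mice. Notum, a secreted Wnt deacylase, was at 9.67, 6.08 and 5.55 against 0.587, 3.85 and 2.03 CPM. Wnt10b was at 27.8, 14.9 and 15.9 against 6.03, 9.46 and 6.79 CPM. All 3 were without overlap between the groups.

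Matrix genes lay on the lower side under bleomycin without a call, and by their medians on the higher side in the PBS mice. There the medians were 0.59 for fibrillar collagens, 0.72 for crosslinking and processing genes (6 higher and 0 lower at an unadjusted p under 0.05) and 0.43 for myofibroblast and scar matrix genes (6 higher, 1 lower). In the PBS mice 12.6% of all genes were higher and 7.75% lower at that p. The higher side there rested on KO PBS mice 137 and 139. Fibrillar collagen mean log2 CPM was 5.94 in KO PBS mouse 136, 7.01 and 6.88 in 137 and 139, and 6.20 to 6.60 in WT PBS mice. In each of these lists mouse 136 lay below every WT PBS mouse. It was also the 1 KO PBS mouse with growing hair values in the WT PBS range. Under bleomycin, 9 of 10 fibrillar collagens had a log2 fold change below 0 and the median was -0.69, but 1 was lower at an unadjusted p under 0.05 (8.62% of all genes). Col1a1, the main collagen of scar, was at 2905, 8835 and 8828 CPM in KO BLM and 4070.3, 10755 and 10224 CPM in WT BLM mice (log2 fold change -0.28 ± 0.54, adjusted p 0.797, edgeR). Those groups overlapped, and mice 141 and 145 were the lowest of their groups. Without mouse 141 the median of the list was -0.38 and with hair as a covariate -0.09. Of 20 crosslinking and processing genes, 6 were lower at that p (median -0.59). Lox and Loxl3, which crosslink collagen, were at 47.3, 61.1 and 65.5 and at 16.7, 21.7 and 38.2 CPM in KO BLM mice, against 84.5, 163 and 137 and 57.3, 51.6 and 73.4 CPM. Both were below every WT BLM mouse.

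Of 24 myofibroblast and scar matrix genes, 3 were lower and 1 higher at an unadjusted p under 0.05 (8.62% and 8% of all genes), with a median of -0.43. Fn1, fibronectin, was at 869, 678 and 963 CPM in KO BLM and 1864, 2994 and 1988 CPM in WT BLM mice, without overlap (log2 fold change -1.45 ± 0.34, adjusted p 0.193 in edgeR and 0.00402 in DESeq2). Acta2, smooth muscle actin, was at 255, 258 and 360 against 393, 333 and 444 CPM, where KO BLM mouse 144 lay inside the WT range (log2 fold change -0.42 ± 0.18, adjusted p 0.283). Tagln, a further marker of contractile cells, lay on the other side, at 150.3, 133 and 148 against 99, 124 and 107 CPM. With hair as a covariate the medians of the crosslinking and myofibroblast lists were -0.02 and 0.07. Skeletal muscle genes, of the thin muscle layer beneath mouse skin, lay on the same side. Of the 37, 10 were lower at that p and the median was -1.05. In the PBS mice 19 were higher and 0 lower (12.6% and 7.75% of all genes there), and the median was 1.56. The mean log2 CPM of the muscle list was 7.02 to 8.17 in KO BLM and 8.25 to 9.13 in WT BLM mice, without overlap. In KO PBS mice 136, 137 and 139 it was 5.33, 6.97 and 6.45, with mouse 136 inside the WT PBS range of 4.84 to 5.58. The part of muscle in the matrix results was not tested.

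The receptors that bind Thy-1 and the integrins lay on the lower side under bleomycin and, by their medians, on the higher side in the PBS mice (0.26 and 0.43). KO PBS mouse 136 had a mean log2 CPM of 4.88 and 4.13 for these lists. Those values lay below the WT PBS mice, at 5.10 to 5.49 and 4.24 to 4.44. Of 11 genes for Thy-1 and its binding partners, 10 had a log2 fold change below 0, 5 were lower at an unadjusted p under 0.05 (8.62% of all genes), and 8 were lower without overlap (12.9% of all genes), with a median of -0.61. Of 25 integrin subunits, 6 were lower at that p and 11 did not overlap (median -0.36), with 0 called by edgeR and 2 lower by DESeq2 (1.64% of all genes). Under PBS 4 of the 25 integrin subunits were higher and 2 lower at that p, beside 12.6% and 7.75% of all genes there. Itga5, the fibronectin receptor chain, was at 60.3, 74.4 and 109 CPM in KO BLM and 137, 157 and 175 CPM in WT BLM mice (log2 fold change -0.95 ± 0.24, adjusted p 0.206). Its partner Itgb1 was at 331, 360 and 399 against 475, 546 and 537 CPM. Itga7, the laminin receptor chain of muscle fibres, was at 61.2, 68.4 and 104 against 212, 128 and 149 CPM. Adgre5 (CD97), a leukocyte receptor of Thy-1, was at 61.5, 48.9 and 61.6 against 137, 111 and 130 CPM (log2 fold change -1.14 ± 0.28, adjusted p 0.198). With hair as a covariate the medians were -0.15 for both lists.

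Among the inflammatory lists, the macrophage and Toll-like receptor genes had medians below 0, with 0 called by edgeR. The inflammatory cytokine, neutrophil and mast cell lists had medians above 0 (0.08, 0.16 and 0.56). Of 23 macrophage genes, 22 had a log2 fold change below 0 and the median was -0.55. At an unadjusted p under 0.05, 2 were lower, a share near the 8.62% of all genes. Adgre1, which encodes F4/80, was at 70.9, 76.0 and 55.3 CPM in KO BLM and 76.5, 164 and 131 CPM in WT BLM mice, with KO BLM mouse 143 just below WT BLM mouse 145 (adjusted p 0.355, edgeR). Cx3cr1, a receptor of tissue macrophages, was at 8.85, 10.4 and 13.5 against 22.7, 21.3 and 25.8 CPM. Genes of scar-associated macrophages lay on the other side, with 3 of 15 higher at that p, 0 lower and a median of 0.39 (-0.04 in the PBS mice). Of 19 Toll-like receptor genes, 5 were lower at that p (8.62% of all genes) and 11 were lower without overlap (12.9% of all genes). DESeq2 called 1, which was lower (1.64% of all genes), and the median was -0.70. Tlr6 was at 2.02, 3.60 and 3.43 against 7.24, 10.2 and 11.2 CPM, and Tlr9, which senses DNA, at 6.43, 8.68 and 5.62 against 12.8, 18.5 and 24.5 CPM. In the PBS mice the macrophage and Toll-like receptor lists had medians of 0.91 and 0.76, the opposite side.

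All 29 tested interferon-stimulated genes had a log2 fold change below 0. In 19 of them the KO BLM mice lay below every WT BLM mouse (12.9% of all genes). At an unadjusted p under 0.05, 4 were lower and 0 higher (8.62% and 8% of all genes), and 0 were called by either tool (median -0.63). Oas2, a sensor of double-stranded RNA, was at 24.8, 27.3 and 22.0 CPM in KO BLM and 51.1, 63.1 and 60.4 CPM in WT BLM mice (log2 fold change -1.24 ± 0.43, adjusted p 0.254, edgeR). Ddx58, which encodes RIG-I, was at 41.0, 45.9 and 40.2 against 60.5, 62.8 and 76.4 CPM. Their direction turned with hair as a covariate, where the median was 0.36 and 3 genes were higher at that p. In the same fit the macrophage list turned to 0.39. Under PBS the interferon list lay on the higher side, with 21 of 29 higher at that p (12.6% of all genes) and a median of 1.21. Its mean log2 CPM was 4.72 and 3.81 in KO PBS mice 137 and 139. KO PBS mouse 136, at 2.51, lay below the WT PBS mice at 2.57 to 3.12. The promoter of Ddx58 is shown because it holds letters like those of the element that interferon-activated factors are known to bind. A pair of GAAA blocks with any 2 bases between them, on either strand, was found in 14 of the 22 list members with a RefSeq promoter (63.6%) and in 3.99% of all genes in that table. The window lies at chr4:40239776-40240075 of GRCm38.p6, on the - strand, and the capitals mark the match on the opposite strand.
Ddx58: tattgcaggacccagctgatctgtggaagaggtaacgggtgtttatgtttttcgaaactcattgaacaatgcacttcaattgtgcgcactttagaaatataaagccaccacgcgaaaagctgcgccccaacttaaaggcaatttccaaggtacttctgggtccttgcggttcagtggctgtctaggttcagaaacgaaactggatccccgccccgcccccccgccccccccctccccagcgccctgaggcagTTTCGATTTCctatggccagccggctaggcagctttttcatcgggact

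**Figure D5:**
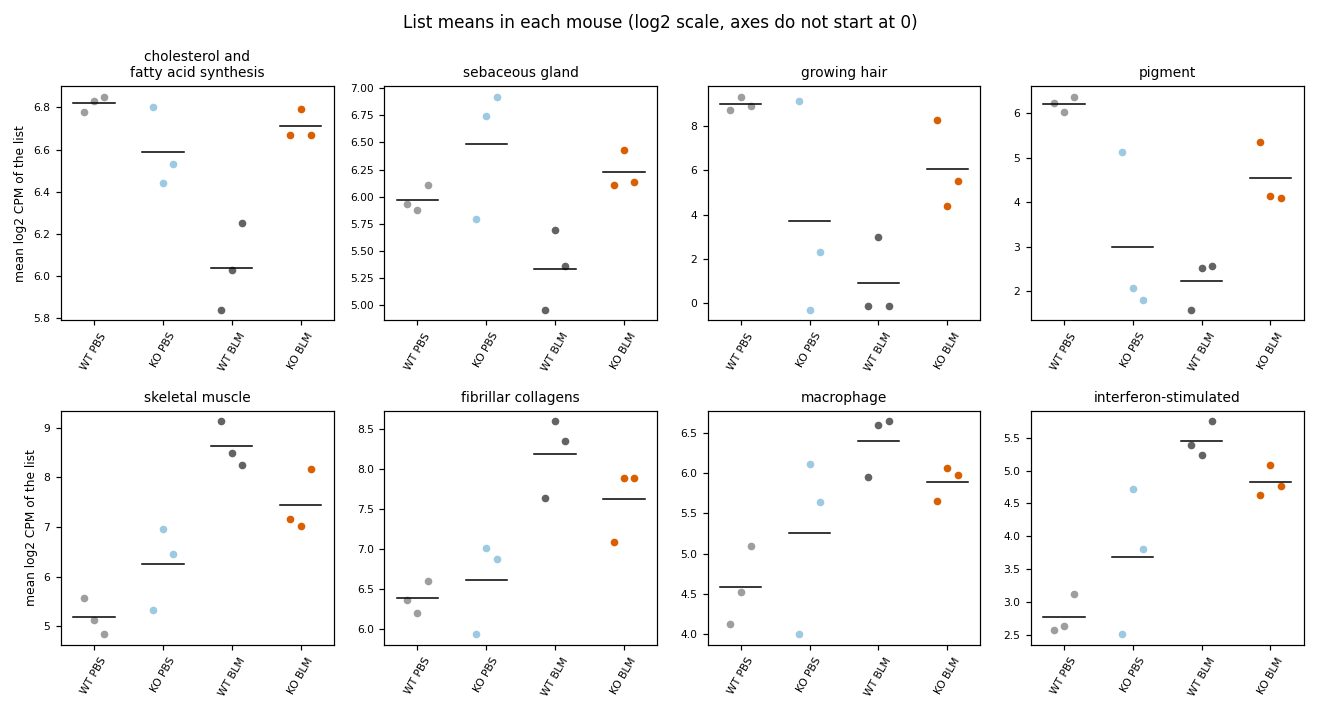
Mean log2 CPM of 8 gene lists (vertical axes, which do not start at 0), 1 dot per mouse and a line at the mean of each group of 3. The KO BLM and WT BLM mice do not overlap for the cholesterol list (6.67 to 6.79 against 5.84 to 6.25) or the muscle genes, and KO PBS mouse 136 and KO BLM mouse 141 have the highest hair values of their groups.

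The 12 genes that the study named for mouse skin were chosen on these samples, so their direction is no independent evidence. Of the 12, 11 had a log2 fold change below 0, 3 were lower at an unadjusted p under 0.05, and 6 were lower without overlap (median -0.77). Over all genes 8.62% were lower at that p and 12.9% were lower without overlap. Under PBS the median was 0.75, with 4 higher and 1 lower at that p (12.6% and 7.75% of all genes there). KO PBS mouse 136 had a mean log2 CPM of 3.25 for these genes, below the WT PBS mice at 3.60 to 4.13. In edgeR 0 were called, and DESeq2 called Thy1. Tlr13 and Ifi44 were at 13.9 to 17.7 and 6.36 to 7.75 CPM against 19.3 to 29.8 and 10.8 to 14.5 CPM. Fasl, the ligand of the death receptor Fas, was at 0.214 to 0.682 against 0.230 to 0.359 CPM, and a difference was not detectable at this depth.

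Genes that flank a targeted allele travel with it through backcrossing, so those near Thy1 were counted separately. Within 10 Mb of Thy1 on chromosome 9, 191 genes were tested and 0 were called by edgeR, while 41 (21.5%) had an unadjusted p under 0.05 and 11 were called by DESeq2. Over all 18162 tested genes with a position the share at that unadjusted p was 16.6%, and DESeq2 called 611 of them. In the PBS mice the shares were 20.9% near Thy1 and 20.4% overall. Of the called genes, 0 lay on chromosome 9 and 2 each on chromosomes 4, 7 and 10. Of 3 tested genes on chromosome Y, 2 had an unadjusted p under 0.05 under bleomycin and 2 under PBS. Whether the groups were matched for sex was not tested. On chromosome 9, Usp28, a deubiquitinase of the DNA damage response, was among the genes just short of the threshold, at 25.7, 24.2 and 33.4 CPM in KO BLM and 65.9, 47.9 and 47.1 CPM in WT BLM mice (adjusted p 0.123).

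Just outside the threshold, the 10 genes next in order on the higher side had adjusted p from 0.0569 to 0.123, and the 10 on the lower side from 0.0624 to 0.123. On the higher side were Adtrp, an esterase of fatty acid hydroxy fatty acids, at 38.7, 46.7 and 40.9 CPM in KO BLM and 19.4, 20.8 and 20.9 CPM in WT BLM mice, and the lipid droplet gene Tmem159. Psph, the last enzyme of serine synthesis, was at 36.4, 42.2 and 43.5 against 18.1, 24.5 and 24.8 CPM. Rdh11, a retinal reductase, was at 70.5, 80.1 and 67.6 against 32.8, 42.3 and 43.9 CPM. Nrxn2, Slc16a13, Hoxb8, Efcab7 and Cdca7 were also on that side. On the lower side, Arhgef2, a microtubule-bound activator of RhoA, was at 57.3, 60.9 and 69.0 CPM in KO BLM and 113, 96.4 and 105 CPM in WT BLM mice. Adamts6, a secreted matrix protease, was at 4.50, 3.47 and 4.17 against 12.3, 9.03 and 9.55 CPM. The others were Thy1, Zfp697, Samd4, Ripor1, Slc4a3, Gprc5c, Sorbs2 and Usp28. All 20 were without overlap, which the rule for naming them required.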

How the data were processed

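The authors made stranded mRNA libraries from skin, sequenced read pairs, counted reads per gene and deposited 1 table of raw counts without normalization. Per the labels the build was GRCm38.p6, and the submitters' processing notes name MultiQC 1.7. The aligner, the counting tool and the use of strand are not given in the sources used here. The authors tested with DESeq2.

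Here the counts of 12 mice were used as deposited. Of 34689 genes with a count, edgeR's filterByExpr (10 counts, 15 in total) kept 18311. TMM scaling and the quasi-likelihood test of edgeR 4.0.16 (R 4.3.3) were used with 4 group means and 8 residual degrees of freedom, and DESeq2 1.42.0 (12 mice, no shrinkage) was an alternative. The biological coefficient of variation was 34.9%. Log2 CPM used a prior count of 2. The p-values measure the spread between these mice, and an exact permutation test of 3 against 3 cannot go below 0.1 (two-sided). A ratio with at most 3 counts per mouse has an exact interval for counting error only, and a group at 0 counts was set to 3 counts. No 2 libraries were alike within sampling noise.

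Lists of 42 kinds were written by gene symbol. The members and lists were chosen with earlier results of these data known. Named were all called genes, the study's skin genes, the next 10 uncalled genes each way (mean log2 CPM of at least 1, no overlap, a gene name) and up to 4 members with the smallest p per list, and some genes that this rule takes in are not reported here. Other list members were chosen after their values were seen to show the steps of the lipid pathway and the parents of the copies. Positions and transcripts came from GENCODE M21 (98.2% of symbols matched), promoters from RefSeq (GRCm38.p6), and copies were aligned with BLAST 2.17.0. Plots used matplotlib 3.10.9. The scripts were tested on simulated counts. Other normalizations, filters, models and each mouse left out were tried.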

Additional observations from a re-analysis of the deposited data

How the results depend on the processing

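No paired analysis was possible because every mouse has its own number. Over the named genes and all alternatives, 4024 values kept their side of the threshold, 307 passed it newly, 118 no longer passed it and 0 reversed. A value was counted as reversed only if its sign changed and the gene was called in the main or the alternative fit. A change of sign in a gene called in neither, or a missing adjusted p, was counted as kept. Against the 17 genes called between KO BLM and WT BLM mice (10 higher, 7 lower), DESeq2 called 614 (313 and 301), DESeq2 on the 6 bleomycin mice 1603 (839 and 764), edgeR with only the 2 groups in the model 6 (5 and 1), and edgeR with growing hair as a covariate 26 (19 higher). With genes of at least 1 CPM, 4 were lower. Leaving out 1 mouse gave 5 to 1292 (higher 4 to 710, lower 1 to 582). The upper end was reached without KO PBS mouse 136, and without each of the other 11 mice the highest was 14. Without KO PBS mouse 136 and KO BLM mouse 141 together, a choice made after seeing the data, 815 were called (471 and 344). The PBS comparison called 12 genes, 755 in DESeq2, 2 with only its groups, 6 to 6870 without 1 mouse and 7648 without both. For the difference between treatments (0 called) the counts were 3279 in DESeq2, 20 without the filter on low counts, 0 to 7470 without 1 mouse and 7218 without both. Genes without overlap were 14.7% higher and 12.9% lower. Without the filter they were 9.01% and 8.37%, without 1 mouse 14.5% to 24.1% and 11.6% to 20.5%, and without both 22.0% and 22.5%. Fewer mice in a group make overlap rarer by construction, and otherwise the cause was not tested. Few called genes, 3 mice a group and the mice's hair state limit what these data can show, and genes below the filter were not tested.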

Other observations

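Further gene groups of skin were counted in the same way, with 0 members called by edgeR in any of them. Of 18 resident dermal fibroblast genes, 3 were higher at an unadjusted p under 0.05 and 0 lower. However, 13 of the 18 had a log2 fold change below 0, and the median was -0.23 (0.90 in the PBS mice). The 3 included Pi16, a marker of universal fibroblasts, at 25.4, 31.4 and 11.5 CPM in KO BLM and 3.68, 11.6 and 5.09 CPM in WT BLM mice, which overlapped by a narrow margin. Dpp4, also among the 3, overlapped too, at 34.8, 18.6 and 16.4 against 9.63, 17.7 and 13.5 CPM. Without overlap, 1 member was higher and 1 lower (14.7% and 12.9% of all genes). The lower one was Prss23, at 66.1, 66.5 and 89.9 against 154, 128 and 104 CPM. Of 18 circadian clock genes, 6 were lower and 0 higher (median -0.36). In the PBS mice 10 were higher and 1 lower (median 0.68), beside 12.6% and 7.75% of all genes there. Per2 was at 20.5, 15.3 and 14.7 against 46.9, 36.1 and 23.8 CPM. The hour at which the skin was taken is not given in the sources used here. Of 16 non-fibrillar collagens, 2 were lower (median -0.45, and 0.21 in the PBS mice), and Col8a1, made by activated mesenchymal cells, was at 50.4, 59.1 and 89.6 against 141, 199.8 and 139.5 CPM. Of 22 p53 targets, 2 were higher and 3 lower (median -0.05, and 0.01 in the PBS mice), and the death receptor Eda2r was at 12.5, 11.9 and 14.9 against 34.9, 33.8 and 20.6 CPM. Krt2, a keratin of the upper epidermis, ranged within WT BLM mice from 1.21 CPM in mouse 146 to 39.5 in mouse 145 and 367 in mouse 147, and was at 1.18 to 6.03 CPM in KO BLM mice.

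At the same p, the metalloproteinases and their inhibitors had 0 higher and 1 lower of 19 (median -0.27). The TGF-beta pathway had 2 higher and 3 lower of 27 (median -0.17), and the Hippo and YAP genes had 0 higher and 3 lower of 22 (median -0.10). The NF-kB genes had 0 higher and 2 lower of 20 (median -0.18), and the chemokines had 1 higher and 1 lower of 34 (median -0.09). The chemokine receptors had 0 higher and 2 lower of 21 (median -0.06), and the inflammatory cytokines had 0 higher and 0 lower of 20 (median 0.08). The T cell genes had 0 higher and 1 lower of 22 (median 0.28), and the lower member was Thy1, the targeted gene itself. The B and plasma cell genes had 0 higher and 0 lower of 14 (median -0.02). The neutrophil genes had 1 higher and 0 lower of 12 (median 0.16), and the mast cell genes had 0 higher and 0 lower of 12 (median 0.56). MHC class II presentation had 0 higher and 1 lower of 14 (median -0.54), and complement had 0 higher and 1 lower of 23 (median -0.55). The stress keratins and cornified envelope had 2 higher and 0 lower of 34 (median 0.30), and the basal and suprabasal epidermis had 1 higher and 1 lower of 20 (median 0.25). The adipocyte genes had 1 higher and 0 lower of 24 (median -0.37), and the oxidative phosphorylation subunits had 2 higher and 0 lower of 36 (median 0.05). The endothelial genes had 0 higher and 2 lower of 22 (median -0.37), and the erythrocyte genes had 1 higher and 0 lower of 7 (median 0.57). These shares can be read beside the 8% and 8.62% of all tested genes that were higher and lower. In the PBS mice the medians of these lists ran from -0.08 for the Hippo and YAP genes to 1.10 for MHC class II presentation, of which 13 of 14 were higher at that p, beside 12.6% of all genes. For MHC class II presentation KO PBS mouse 136 had a mean log2 CPM of 3.62, below the WT PBS mice at 3.92 to 3.98.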
